A study of Mus musculus with 23 samples.

Results

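The 31 genes described here encode enzymes of cholesterol and fatty acid synthesis together with their regulators. They were taken from a fixed list, which was chosen with earlier results of these data known. Of these, 30 had a probe with their symbol on the Illumina mouse bead array used, and 29 entered the tests, out of 9849 genes tested in all. RNA was measured on 23 arrays from 2 mouse striatal cell lines, Q111, which carries the mutant genotype of a Huntington disease model, and Q7, which carries the wild-type genotype. The treatments lasted 12 h, at 50 µM for both ZDON and Boc-DON and at 250 µM for cystamine, in a study of the inhibition of transglutaminase 2. The groups were Q111 with ZDON, Boc-DON, cystamine or control and Q7 with ZDON, Boc-DON, cystamine or control. Each group had 3 arrays except Q7 with Boc-DON, which had 2. Whether control cells received a vehicle, and for how long, is not in the labels, so that compound and vehicle cannot be told apart. Each genotype is represented by 1 line, so genotype and any other difference between these lines cannot be told apart. Nothing in the labels says that replicates were separate cultures, and p-values therefore measure the spread between these samples, which may be technical.

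Cholesterol is built from acetyl-CoA by way of mevalonate, the isoprenoid farnesyl diphosphate, squalene and lanosterol, and fatty acids are built from the same acetyl-CoA by carboxylation and chain growth, followed by elongation and desaturation. The SREBP transcription factors switch on both branches when membrane sterol is low, and INSIG proteins hold their precursors in the endoplasmic reticulum when sterol is plentiful. In brain, cholesterol is made locally, because lipoprotein cholesterol does not cross the blood-brain barrier, and lowered expression of this pathway has been described in Huntington disease models.

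Promoter windows of 250 bases before to 50 bases after a gene start (RefSeq, GRCm38.p6) were at hand for 24 of the members, in 31 windows. The CCAAT box (CCAAT, read on both strands), which binds NF-Y, a common partner of SREBP, lay in 22 of the 31 windows (71%) and in 37.4% of 32851 windows of all genes. The E-box CACGTG lay in 4 windows of the members (12.9%) and in 7.15% of all windows. The sterol regulatory element in the form TCACNCCAC lay in 1 window of the members (3.23%), that of Hmgcs1, and in 1.24% of all windows. The windows of Fasn, Ebp and Lss are printed because these genes passed a test below, and that of Hmgcs1 because it holds the sterol element. Capitals mark the CCAAT box (ATTGG where it reads on the other strand) and, in Hmgcs1, the sterol regulatory element.
Lss, chr10:76531355-76531654, + strand: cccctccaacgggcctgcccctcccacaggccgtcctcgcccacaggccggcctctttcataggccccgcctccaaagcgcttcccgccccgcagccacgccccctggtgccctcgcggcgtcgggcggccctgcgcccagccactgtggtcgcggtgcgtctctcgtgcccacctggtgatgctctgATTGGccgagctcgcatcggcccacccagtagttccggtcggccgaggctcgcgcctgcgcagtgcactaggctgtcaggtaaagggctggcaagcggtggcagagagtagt
Ebp, chrX:8193463-8193762, - strand: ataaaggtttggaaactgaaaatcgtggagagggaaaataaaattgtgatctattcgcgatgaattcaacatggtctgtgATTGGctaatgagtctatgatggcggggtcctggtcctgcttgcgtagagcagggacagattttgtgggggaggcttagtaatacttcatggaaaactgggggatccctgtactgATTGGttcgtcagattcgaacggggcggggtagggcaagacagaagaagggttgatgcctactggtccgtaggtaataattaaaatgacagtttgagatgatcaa
Fasn, chr11:120824498-120824797, - strand: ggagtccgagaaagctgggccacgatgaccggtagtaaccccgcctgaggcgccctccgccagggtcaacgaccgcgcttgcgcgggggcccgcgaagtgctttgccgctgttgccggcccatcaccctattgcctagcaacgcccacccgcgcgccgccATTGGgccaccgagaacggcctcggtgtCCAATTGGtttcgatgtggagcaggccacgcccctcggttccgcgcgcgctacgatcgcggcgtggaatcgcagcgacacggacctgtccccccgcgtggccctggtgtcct
Hmgcs1, chr13:119690101-119690400, + strand: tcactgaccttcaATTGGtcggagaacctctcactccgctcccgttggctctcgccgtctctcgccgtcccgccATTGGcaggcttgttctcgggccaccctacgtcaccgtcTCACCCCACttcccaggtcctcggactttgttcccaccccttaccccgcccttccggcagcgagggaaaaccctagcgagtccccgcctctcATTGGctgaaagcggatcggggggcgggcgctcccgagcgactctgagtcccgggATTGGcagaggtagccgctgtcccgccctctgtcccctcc
Lss held 1 CCAAT box, Ebp 2, Fasn 3, of which 2 overlap on opposite strands, and Hmgcs1 4. A match of letters is a description of the sequence and shows no binding. Scd1, which also passed a test, is named without a sequence.

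Levels are log2 normalized intensities, and a difference of 1 on this scale is 2-fold. A level is compared only with other levels of the same gene. Before normalization the median intensity per array lay between 107 and 165. After normalization, over the probes that passed the filter, array medians of the correlation with other arrays lay between 0.984 and 0.991. Q7 with ZDON replicate 3 had an 18S ribosomal RNA signal of 4531, against 14245 to 27122 on the other arrays, and the member medians and several members in Q7 with ZDON are also given without it. Replicates 1, 2 and 3 sat on BeadChips 1, 2 and 3, and the chip was a term in the model. Of 7 striatal projection neuron markers with a probe, Pde10a alone was above the array median on all 23 arrays, and Rgs9 and Bcl11b were above it on no array. Ppp1r1b was above it on 20 arrays, and Drd1, Drd2 and Tac1 on 3, 6 and 7. The count above it on all 23 arrays was 4 of 5 for neural progenitor markers, 2 of 5 for fibroblast markers and 0 of 4 each for oligodendrocyte, astrocyte and adipocyte markers. Markers short of all arrays included the progenitor marker Dlx2 (12 arrays), the fibroblast markers Col1a2 (20) and Pdgfra (12), and the astrocyte marker Aldh1l1 (19).

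Across all 23 arrays the members varied about as much as other genes, with a median SD of 0.21 on the log2 scale, against 0.19 over all genes tested. Acss2, which makes acetyl-CoA from acetate, had the largest SD (0.49), followed by Elovl6, an elongase of saturated fatty acids (0.38), and Insig1 and Lss (0.36 each). Scd2, a stearoyl-CoA desaturase, had the smallest (0.08), at 14.65 on average over all arrays, where 37 of 24611 probes were brighter, so that a narrowed range near the top of the scale cannot be told apart from a steady level. The median member had 4.03% of its sum of squares between lines, 17.3% between compounds and 19.9% between chips, against 5.05%, 16.1% and 11.4% over all genes. Line took its largest shares in Ebp (36.2%), Fasn (27.7%) and Scd1 (26%), compound in Cyp51 (40.4%), and chip in Mvk (46.6%) and Insig1 (46.3%).

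Srebf1, which encodes SREBP-1, was at or below the median of its array on all 23 arrays, at 5.71 to 6.70, and was left out of the tests by the filter on dim probes. Srebf2, which encodes SREBP-2, had no probe assigned to its symbol in the annotation used and was not analysed here. Idi1 (isopentenyl-diphosphate isomerase) and Fdft1 (squalene synthase) were above the array median on 16 of 23 arrays, and the other 27 tested members on all 23. The differences of Idi1 and Fdft1 therefore come from dim probes.

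**Figure D1:**
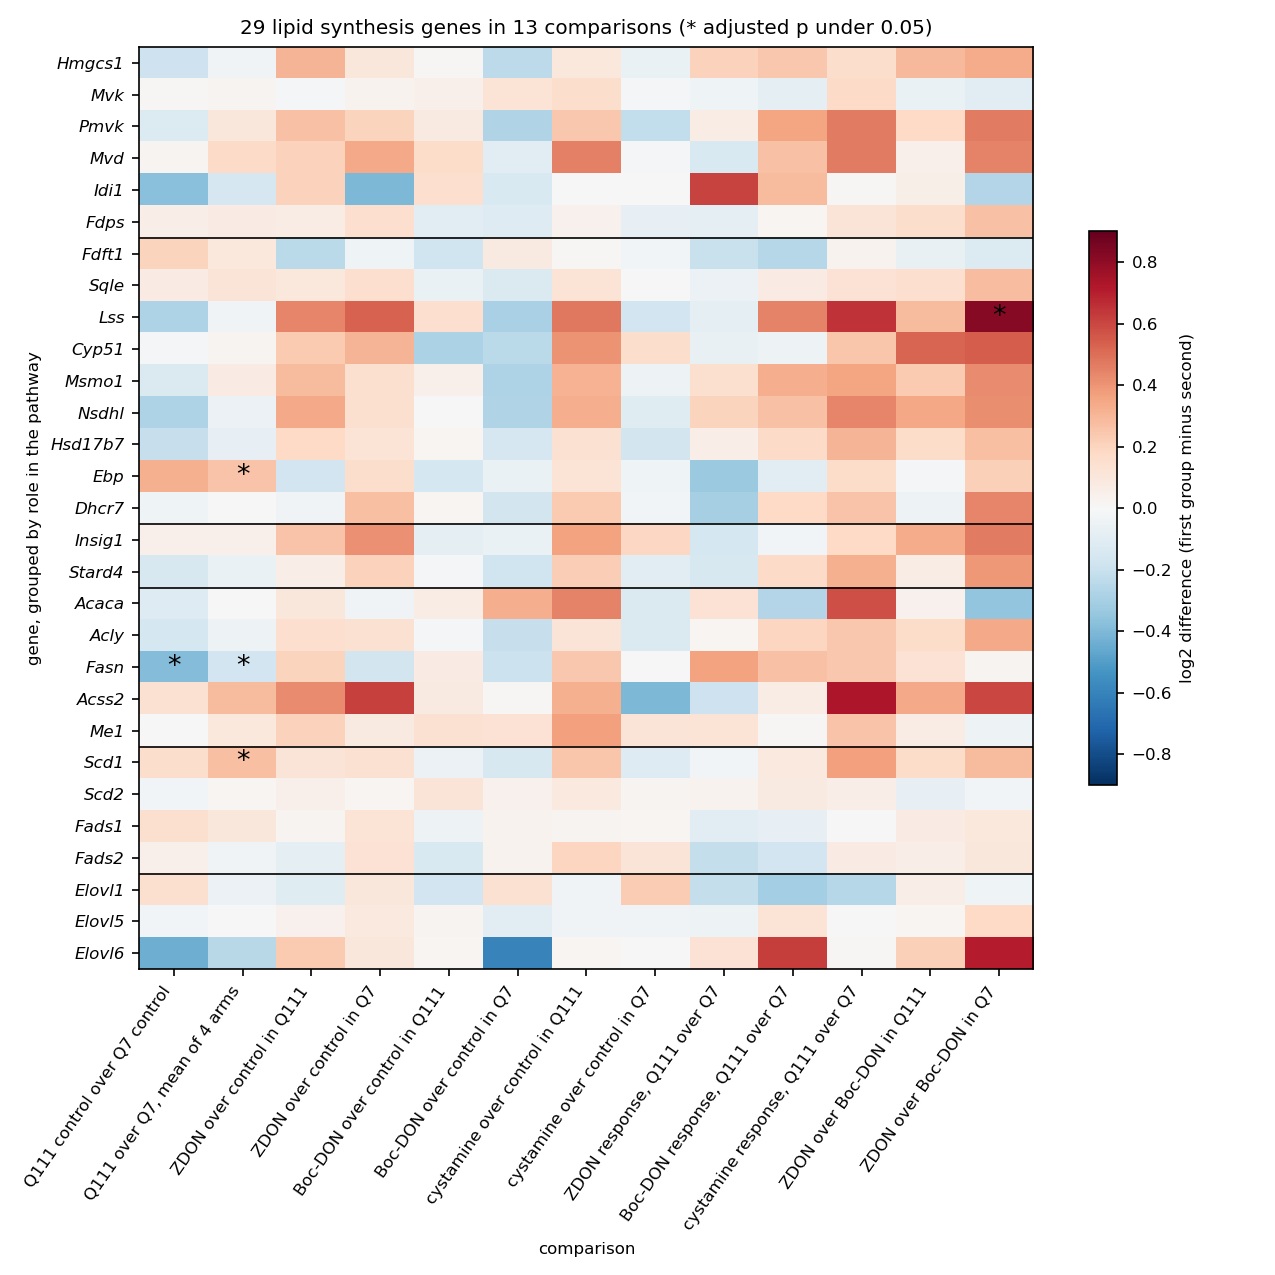
Log2 difference (colour, first group minus second) of the 29 tested genes, in rows grouped by role from mevalonate synthesis at the top to elongation at the bottom, in 13 comparisons in columns. An asterisk marks an adjusted p under 0.05 over all 9849 genes, and 5 cells carry one.

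In Q111 control cells compared with Q7 control cells, 1 lipid synthesis gene passed the test. Fasn, the fatty acid synthase that builds palmitate, had levels of 12.60, 12.72 and 12.57 in Q111 control cells, against 13.01, 12.98 and 13.07 in Q7 control cells. All Q111 control arrays were below all Q7 control arrays. Fasn fell by 0.39 on the log2 scale in Q111 (SE 0.10, a fold of 0.763, limma adjusted p = 0.0247), and by 0.41, 0.26 and 0.50 on the 3 chips. That is 1 call among 29 members, beside 3.26% of all genes tested in this comparison (2.11% higher and 1.15% lower). In the bulk RNA of these cultures, fewer expressing cells and less RNA per cell cannot be told apart.

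The pathway as a whole lay on both sides of 0 in the control cells, with 12 members above it and 17 below, and a median difference of −0.02 (all genes −0.01), and median scaling of the arrays gave 16 above 0 and a median of 0.03 (all genes 0.04, with 58.4% of them above 0). Ebp, the sterol isomerase that moves the double bond of the sterol ring, had levels of 12.20, 12.35 and 12.40 in Q111 control cells, against 12.06, 12.14 and 11.78 in Q7 control cells. The groups did not overlap, but the difference of 0.32 (SE 0.11) had an adjusted p of 0.149 in limma. Nsdhl, a sterol dehydrogenase of the C4 demethylation complex, stood at −0.28 (adjusted p = 0.236) and Idi1 at −0.38 (adjusted p = 0.174). The other probes of Nsdhl stood at −0.08 and −0.17. The groups did not overlap for 4 members, which reads against 13.7% of all genes. All 29 members had a 95% interval within 1 log2 unit of 0, with bounds between −0.84 and 0.55. Without the chip term the adjusted p of Fasn was 0.117, and it was 0.0726 without Q111 control replicate 2, 0.153 without Q111 control replicate 3, 0.151 without Q7 control replicate 1 and 0.0688 without Q7 control replicate 3.

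Averaged over the 4 treatment arms, Q111 cells had higher Ebp and Scd1 and lower Fasn than Q7 cells. Ebp was at 11.98 to 12.54 on the Q111 arrays (median 12.25), against 11.75 to 12.30 on the Q7 arrays (median 12.04). Ebp rose by 0.25 (SE 0.06, adjusted p = 0.00399 in limma), with 0.21, 0.16 and 0.36 on the 3 chips, where chip 3 carries 3 arms. Of 11 pairs of Q111 and Q7 arrays with the same chip and treatment, 9 had more Ebp in Q111, and the arm means were −0.01 with ZDON, 0.09 with Boc-DON, 0.48 with cystamine and 0.32 in controls. The ranges of the lines overlapped, and the mean of the ZDON arm was near 0.

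Scd1, the desaturase that turns stearate into oleate, was at 12.44 to 13.36 on the Q111 arrays (median 12.83), against 12.33 to 12.88 on the Q7 arrays (median 12.56). Scd1 rose by 0.27 in Q111 (SE 0.07, adjusted p = 0.0105 in limma), with 0.29, 0.38 and 0.13 on the 3 chips. It was higher in Q111 in 9 of 11 pairs, and the 4 arm means lay between 0.14 and 0.53. The lines overlapped in range here too. Fasn was at 12.57 to 13.02 on the Q111 arrays (median 12.74), against 12.64 to 13.17 on the Q7 arrays (median 12.98). It fell by 0.17 in Q111 (SE 0.05, adjusted p = 0.0195 in limma), with −0.10, −0.17 and −0.25 on the 3 chips. It was lower in Q111 in 9 of 11 pairs, by 0.39 in controls and by 0.03 with ZDON.

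These 3 calls among 29 members read against 17.2% of all genes called in the averaged line comparison, 9.67% higher and 7.52% lower. By role among the tested members, 1 of 15 sterol enzymes and 2 of 12 enzymes of fatty acid synthesis, desaturation and elongation changed. The member median was 0.02 (all genes −0.01), with 15 members above 0 and 14 below, and median scaling gave 0.08 and 25 members above 0 (all genes 0.05, with 64.8% of them above 0). At an unadjusted p under 0.05 there were 8 members, beside 29.4% of all genes. Acss2, at 0.29 (adjusted p = 0.0583), and Elovl6, at −0.25 (adjusted p = 0.0959), had larger or like differences with a wider spread. Without the chip term, Ebp kept an adjusted p of 0.0151, while Scd1 was at 0.0645 and Fasn at 0.0802. Scaling arrays by their median instead of by quantiles gave 7 calls, all higher in Q111 (Pmvk, Mvd, Sqle, Ebp, Acss2, Me1 and Scd1), and left Fasn at −0.08 (adjusted p = 0.398). Over all genes, 85.6% of calls were upward under that scaling, against 56.2% under quantile normalization. The share of all genes called under it is not given here, so the 7 calls cannot be read against one. Leaving out 1 array at a time gave 2 to 5 calls, with 2 without Q7 Boc-DON replicate 2 (Fasn at an adjusted p of 0.0691) and 5 without Q7 cystamine replicate 2, which adds Idi1 at −0.19 and Elovl6 at −0.29. Mvd passed without Q111 ZDON replicate 3 (adjusted p = 0.0283), and Acss2 passed without Q111 Boc-DON replicate 1 (0.0418), Q111 cystamine replicate 3 (0.0155), Q7 ZDON replicate 1 (0.0351) or Q7 control replicate 2 (0.0485).

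Markers of other cells differed between these lines as well. Summed as a mean over 5 fibroblast markers, levels lay between 8.30 and 9.42 on Q111 arrays, against 7.57 and 8.06 on Q7 arrays, and 4 of 4 tested markers were higher in Q111 (Col1a1, Col1a2, Pdgfra and Lox, by 1.26 to 2.22). Thy1 was above the array median on 1 of 23 arrays and was not tested. Pdgfra was above it on 12 of 23 arrays, all of Q111 (7.01 to 8.30, against 6.37 to 6.71 on Q7 arrays). It entered the tests only through the line where it is high, which favours the count of 4 of 4. Lox differed by 2.66, 2.72 and 1.05 on the 3 chips, and its ranges on Q111 and Q7 arrays did not overlap, at 10.91 to 12.67 against 9.31 to 10.50. Of 5 tested neural progenitor markers, 2 passed the test as higher in Q111 (Dlx1 and Dlx2) and 0 as lower, with a list median of 0.02. Dlx2 too entered the tests through Q111 alone, at 7.17 to 8.32 there, against 5.91 to 6.42 on Q7 arrays. Of 5 tested projection neuron markers, 1 passed as lower (Pde10a) and 0 as higher, with a list median of −0.03. The part of these markers in the differences of Ebp, Scd1 and Fasn was not tested.

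**Figure D2:**
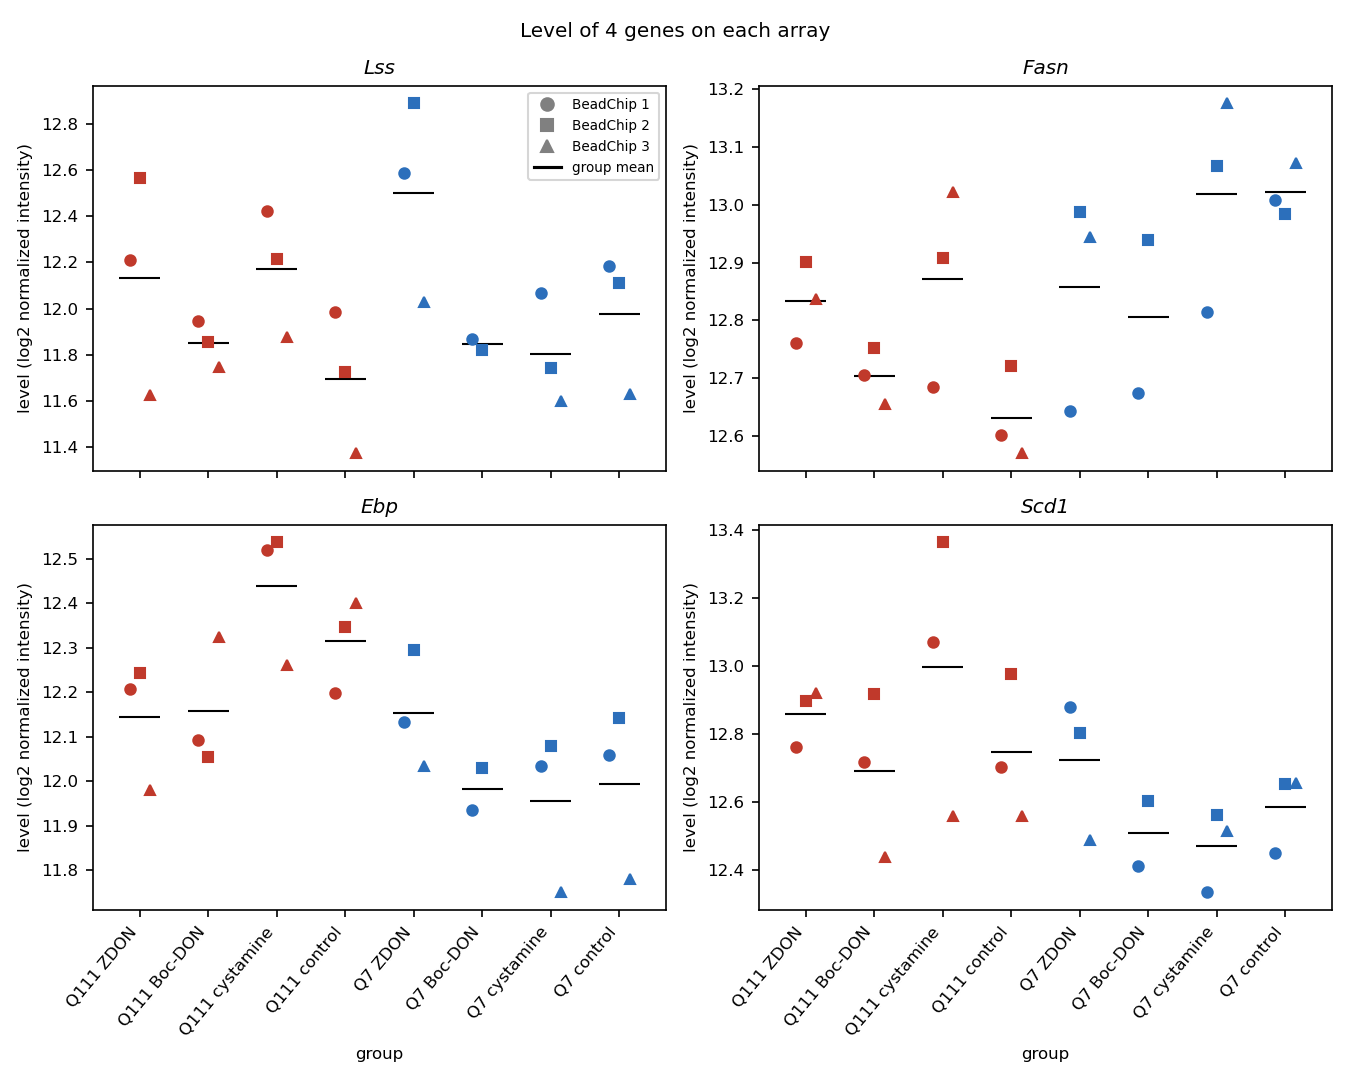
Log2 normalized intensity of Lss, Fasn, Ebp and Scd1 on each of the 23 arrays, in red for Q111 and blue for Q7, with the symbol giving the BeadChip and the bar the group mean. Fasn in Q111 control arrays (12.57 to 12.72) lies below Q7 control arrays (12.98 to 13.07), and Lss in Q7 with ZDON (12.03 to 12.89) lies above Q7 with Boc-DON (11.82 and 11.87).

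ZDON and Boc-DON, which the labels name as DON compounds without a structure, were given at the same dose and time. Between them, 1 of the 29 tested members passed the test, in Q7. Over all 9849 genes, 18 passed in Q7 and 6 in Q111. Lss, the lanosterol synthase that closes squalene epoxide into the first sterol, had levels of 12.59, 12.89 and 12.03 in Q7 cells with ZDON, against 11.87 and 11.82 in Q7 cells with Boc-DON. Every ZDON array was above both Boc-DON arrays. Lss was higher with ZDON by 0.82 (SE 0.15, 95% interval 0.50 to 1.14, a fold of 1.76, limma adjusted p = 0.0318), and by 0.72 and 1.07 on the 2 chips that carry both groups. The chip term adjusts for the missing Boc-DON array on chip 3, where Lss had its lowest array in each group that was on that chip, and without this term the difference was 0.66 (adjusted p = 0.731).

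In Q7 the call for Lss stood beside 0.183% of all genes called, and 14 of the 29 members had an unadjusted p under 0.05, all higher with ZDON, against 9.12% of all genes in either direction. The member median was 0.28 (all genes −0.01), at 0.23 and 0.38 on chips 1 and 2. Of the sterol enzymes, 12 of 15 were above 0. Cyp51, the lanosterol demethylase, differed by 0.55 (adjusted p = 0.195), Pmvk, the phosphomevalonate kinase, by 0.47 (adjusted p = 0.195), and Nsdhl by 0.42 (adjusted p = 0.299). Elovl6 stood at 0.70 (adjusted p = 0.298) and Acss2 at 0.60 (adjusted p = 0.411), while Acaca, the acetyl-CoA carboxylase, stood at −0.35 with an interval from −0.80 to 0.09. The groups did not overlap for 11 members, beside 27% of all genes.

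The Q7 result depended on which arrays were used. Without Q7 ZDON replicate 3, the array with the low 18S signal, Lss was at 0.89 (adjusted p = 0.0195), and Nsdhl (0.57, adjusted p = 0.0195) and Cyp51 (0.69, adjusted p = 0.0433) passed the test too, and the member median was 0.33 (all genes −0.01). Calls over all genes rose as well without that array, to 30 from 18, and the 3 member calls are among those 30. The adjusted p of Lss was 0.0606 without Q7 ZDON replicate 1, 0.256 without Q7 ZDON replicate 2, 0.570 without Q7 Boc-DON replicate 1 and 0.340 without Q7 Boc-DON replicate 2. With no filter on dim probes it was 0.0520.

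In Q111 cells, 0 members passed the test between ZDON and Boc-DON, beside 0.0609% of all genes, and 3 had an unadjusted p under 0.05, beside 5.87% of all genes. Cyp51 had levels of 12.09, 11.98 and 11.53 with ZDON, against 11.42, 11.36 and 11.23 with Boc-DON. The groups did not overlap, and the difference was 0.53 (95% interval 0.25 to 0.80, adjusted p = 0.252 in limma). Nsdhl stood at 0.35 (0.11 to 0.58) and Lss at 0.28 (0.00 to 0.57), with groups that overlapped for Lss and not for Nsdhl. The member median was 0.13 (all genes −0.01), with 24 members above 0 and chip medians of 0.11, 0.18 and 0.10. ZDON and Boc-DON arrays did not overlap for 6 members, beside 11.3% of all genes. All 29 intervals lay within 1 log2 unit of 0, so that larger differences between the compounds were not seen in Q111. Whether the ZDON to Boc-DON difference itself differs between the lines was not tested.

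**Figure D3:**
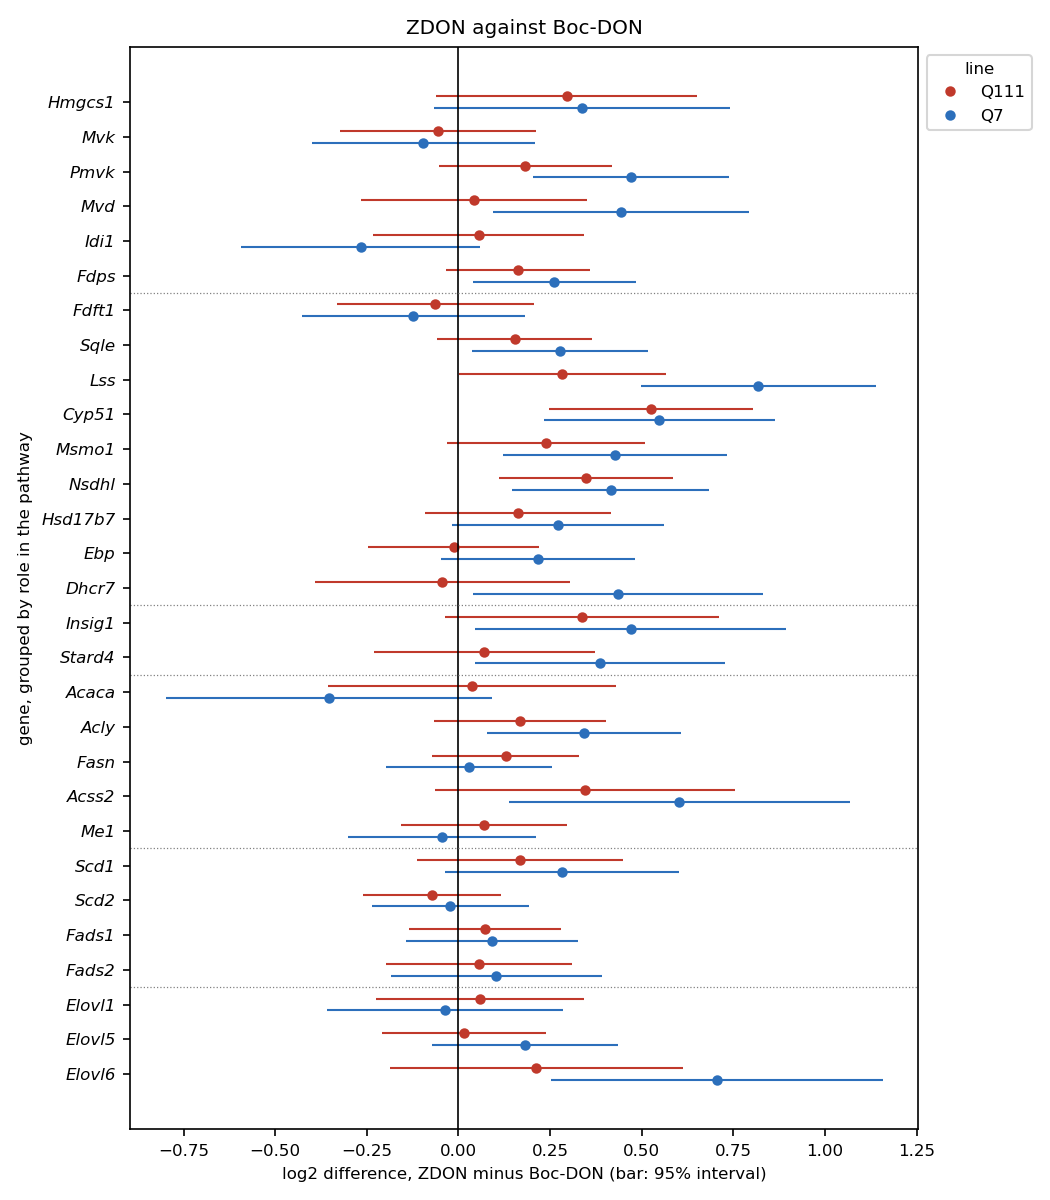
Log2 difference between ZDON and Boc-DON (x axis, ZDON minus Boc-DON) for the 29 tested genes in Q111 (red) and Q7 (blue), with bars for 95% intervals. Lss in Q7 (0.82) lies furthest to the right, and the medians are 0.13 in Q111 and 0.28 in Q7.

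Against the controls, ZDON called 0 members in either line. In Q111 that is beside 0.264% of all genes and in Q7 beside 0.0508%, or 26 and 5 genes, and with 1 array left out these counts were 2 to 13 and 1 to 12. In Q111 the member median was 0.15 (all genes 0.01), with 23 of 29 above 0 and 6 at an unadjusted p under 0.05, all upward, beside 10.5% of all genes in either direction. In Q7 it was 0.13 (all genes 0.00), with 25 of 29 above 0 and 6 at an unadjusted p under 0.05, of which Idi1 was downward, beside 7.76% of all genes. On chip 3 the Q7 median was −0.01, against 0.13 and 0.22 on chips 1 and 2, and without Q7 ZDON replicate 3 the median was 0.20. ZDON and control arrays did not overlap for 6 members in Q111, beside 13.6% of all genes, and for 1 member in Q7, beside 8.22%.

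Lss had the smallest member p with ZDON in both lines. Its levels were 12.21, 12.56 and 11.62 in Q111 with ZDON, against 11.98, 11.73 and 11.37 in Q111 controls, a difference of 0.44 (SE 0.14, adjusted p = 0.202 in limma). In Q7 with ZDON the levels given above compare with 12.18, 12.11 and 11.63 in Q7 controls, a difference of 0.53 (SE 0.14, adjusted p = 0.178 in limma). The groups overlapped in both lines, although each chip had more Lss with ZDON. Nsdhl had levels of 13.74, 13.79 and 13.62 in Q111 with ZDON, against 13.45, 13.39 and 13.29 in Q111 controls, with no overlap (0.34, adjusted p = 0.244), while its other probes stood at 0.08 and 0.25. Acss2 stood at 0.42 in Q111 (adjusted p = 0.459) and at 0.61 in Q7 (adjusted p = 0.343).

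Insig1, a target of SREBP that restrains it, stood with ZDON at 0.25 in Q111 and at 0.41 in Q7 (adjusted p = 0.578), and its second probe at 0.25 and 0.44. Hmgcs1, the HMG-CoA synthase of the mevalonate branch, stood at 0.30 in Q111 and 0.10 in Q7. Without Q7 ZDON replicate 3 the differences from control in Q7 were 0.67 for Insig1 (adjusted p = 0.161), 0.30 for Hmgcs1 (0.605), 0.84 for Acss2 (0.138) and 0.61 for Lss (0.159), and 0 of 29 members passed the test. The largest interval with ZDON in Q7 reached 1.02 (Acss2), and 28 of 29 members had intervals within 1 log2 unit of 0 there and 29 of 29 in Q111. Setting the ZDON response of Q111 against that of Q7 called 0 of 29 members and 0 of 9849 genes (393 genes at an unadjusted p under 0.05), with 2 members, Idi1 and Fasn, at an unadjusted p under 0.05. The member median of that difference was −0.05 with all arrays and −0.10 without Q7 ZDON replicate 3, which left 12 and 8 members above 0.

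Boc-DON called 0 members against the controls in either line, beside 0.812% of all genes in Q111 and 0.264% in Q7. In Q111 the member median was 0.01 (all genes 0.01), or −0.04 under median scaling (all genes −0.02), and Cyp51, at −0.29 (adjusted p = 0.363), was the 1 member with an unadjusted p under 0.05, beside 13.1% of all genes. In Q7 the member median was −0.13 (all genes 0.01), with 20 of 29 below 0, 13 of them sterol enzymes out of 15, and 3 members had an unadjusted p under 0.05, beside 9.64% of all genes. Elovl6 had levels of 10.75 and 10.65 in Q7 with Boc-DON, against 11.09, 11.05 and 12.15 in Q7 controls, with no overlap. Its difference of −0.60 (SE 0.22) had an adjusted p of 0.355 in limma. The Q7 control on chip 3, which has no Boc-DON partner, was the highest of these, and on chips 1 and 2 the difference was −0.34 and −0.40. Nsdhl and Pmvk stood at −0.27 each in Q7. Boc-DON and control arrays did not overlap for 1 member in Q111, beside 18.6% of all genes, and for 8 members in Q7, beside 26%. Setting the Boc-DON response of Q111 against that of Q7 called 0 members and 0 of all genes (463 genes at an unadjusted p under 0.05), and Lss at 0.44 (SE 0.20) and Elovl6 at 0.62 (SE 0.29) had an unadjusted p under 0.05. The comparisons of ZDON, Boc-DON and cystamine with control share the control arrays of their line.

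Cystamine, an aminothiol disulfide given at 250 µM, called 0 members in either line, beside 1.73% of all genes in Q111 and 0.944% in Q7. In Q111 the difference was above 0 for 27 of 29 members, among them all 15 sterol enzymes, with a median of 0.19 (all genes −0.01), and median scaling left 22 members and 11 sterol enzymes above 0, beside 30.8% of all genes. In Q7, 8 of 29 were above 0, among them 1 of 15 sterol enzymes, with a median of −0.02 (all genes −0.01), and median scaling left 2 members and 0 sterol enzymes above 0, beside 25.4% of all genes. At an unadjusted p under 0.05 there were 9 members in Q111, all upward, beside 13.5% of all genes in either direction, and 0 members in Q7, beside 10.7%.

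Lss again had the smallest member p in Q111. Its levels were 12.42, 12.21 and 11.88 with cystamine, against 11.98, 11.73 and 11.37 in Q111 controls, higher on each chip by 0.44, 0.49 and 0.50. The difference of 0.48 (SE 0.14, 95% interval 0.19 to 0.76) had an adjusted p of 0.0919 in limma, and the groups overlapped. Me1, the malic enzyme that supplies NADPH, had levels of 12.50, 12.77 and 12.35 with cystamine, against 12.20, 12.41 and 11.90 in Q111 controls (0.37, adjusted p = 0.107). Mvd, the mevalonate diphosphate decarboxylase, had levels of 10.68, 10.45 and 10.37 with cystamine, against 10.13, 10.04 and 9.98 in Q111 controls, with no overlap (0.45, adjusted p = 0.153). Cyp51 stood at 0.41 (adjusted p = 0.154) and Nsdhl at 0.33 (adjusted p = 0.179). Cystamine and control arrays did not overlap for 4 members in Q111, beside 14.5% of all genes, and for 1 member in Q7, beside 12.1%.

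Most of these genes lay near or below 0 in Q7 with cystamine. Lss had levels of 12.07, 11.74 and 11.60 with cystamine, against 12.18, 12.11 and 11.63 in Q7 controls (−0.17, 95% interval −0.45 to 0.11). Acss2 had levels of 9.76, 9.63 and 9.05 with cystamine, against 10.10, 10.25 and 9.28 in Q7 controls (−0.40, adjusted p = 0.478), and stood at 0.32 in Q111. The fit gave 28 of 29 members a larger response in Q111 than in Q7, with a median of 0.24 (all genes 0.00), at 0.32, 0.30 and 0.04 on the 3 chips, and median scaling gave 27 of 29 and a median of 0.22 (all genes 0.01, with 52.4% of them above 0). The test of that difference called 0 members and 0 of all genes (605 genes at an unadjusted p under 0.05). The 6 members with an unadjusted p under 0.05 were Lss (0.65), Pmvk (0.47), Nsdhl (0.44), Acss2 (0.72), Mvd (0.47) and Acaca (0.58), with adjusted p of 0.794 each. The other probes of Nsdhl stood at 0.10 and 0.30.

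The cystamine values in Q111 differed by chip, with member medians of 0.26, 0.23 and 0.01 on chips 1, 2 and 3. Without Q111 cystamine replicate 3, Stard4, a carrier of cholesterol between membranes, passed the test at 0.47 (adjusted p = 0.0373), against 0.22 (adjusted p = 0.516) with it. Scaling by the array median moved the median of all genes with cystamine by −0.10 in Q111 and −0.12 in Q7, and the member medians then stood at 0.05 in Q111 (all genes −0.11) and −0.16 in Q7 (all genes −0.13). The share of upward calls over all genes was 76.5% in Q111 and 73.1% in Q7 under quantile normalization, and 29.3% in Q111 and 18.7% in Q7 under median scaling.

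**Figure D4:**
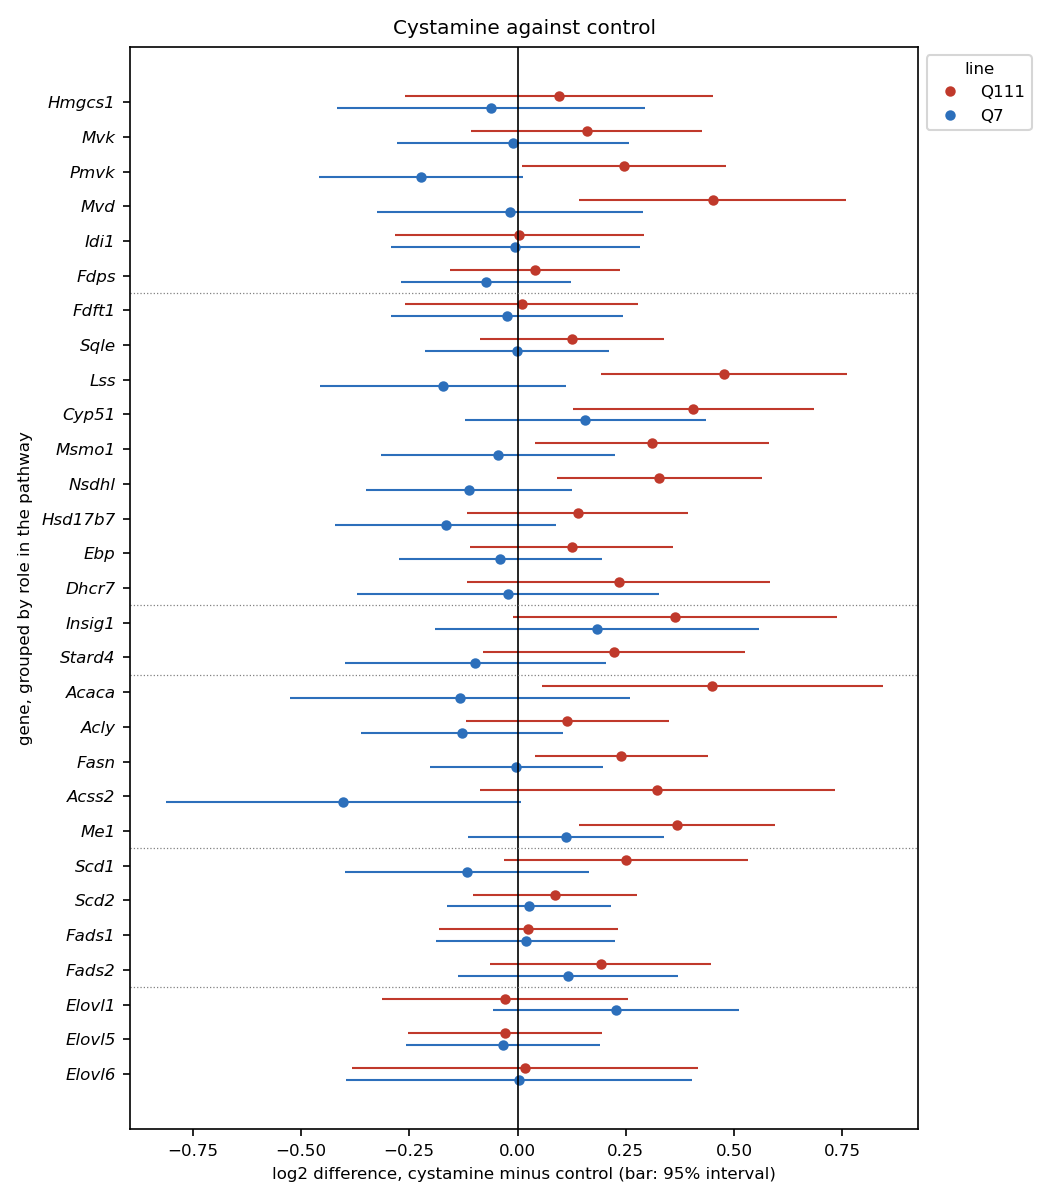
Log2 difference between cystamine and control (x axis, cystamine minus control) for the 29 tested genes in Q111 (red) and Q7 (blue), with bars for 95% intervals. All 15 sterol enzymes lie above 0 in Q111 and 14 of 15 lie below 0 in Q7 (11 of 15 above 0 in Q111 and 15 of 15 below 0 in Q7 under median scaling), and 0 of the 29 genes passed the test in either line.

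Other sterol and lipid genes, among them synthesis enzymes outside the members such as Lbr, were read from further lists. These held 25 sterol genes, of which 10 were tested, and 34 lipid genes, of which 19 were tested. In the averaged line comparison 4 of the 10 sterol genes were lower in Q111 and 0 higher. Abcg1, an exporter of cholesterol, fell by 0.93 (adjusted p = 4.79e-07), and Osbpl3, an oxysterol-binding protein, fell by 0.28 (adjusted p = 0.00478). Lbr, a sterol reductase of the inner nuclear membrane, fell by 0.22 (adjusted p = 0.00892), and Nr1h3, the oxysterol receptor LXR alpha, fell by 0.21 (adjusted p = 0.0233). Nr1h3 was read by a dim probe, at 6.40 to 6.75 on Q111 arrays and 6.60 to 7.03 on Q7 arrays. It exceeded the array median on Q7 arrays only, so it entered the tests through the line where it is higher. Of the 19 lipid genes 3 were higher and 0 lower in Q111, namely Pparg, a nuclear receptor of fat storage (0.45), Mlycd, a malonyl-CoA decarboxylase (0.40), and Acadm, an enzyme of fatty acid oxidation (0.21). These shares, 4 of 10 lower and 3 of 19 higher, stand beside 7.52% of all genes lower and 9.67% higher. The 4 lower genes include Nr1h3, which the filter on dim probes let in through Q7 arrays.

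In control cells alone, Abcg1 (−0.90, adjusted p = 0.00661) and Pparg (0.42, adjusted p = 0.0328) passed the test. That is 1 of 10 sterol genes and 1 of 19 lipid genes, beside 3.26% of all genes. With cystamine in Q111, Npc2, which carries cholesterol out of lysosomes, rose by 0.51 (adjusted p = 0.0447 in limma). It was 1 of 10 sterol genes, beside 1.73% of all genes. In the other comparisons 0 genes of both lists passed. Tgm2, which encodes transglutaminase 2, differed by −0.16 between the lines (adjusted p = 0.466), but by −0.60, −0.42 and 0.70 on chips 1, 2 and 3, so that its direction turned on chip 3. It differed by −0.08 with cystamine in Q111 (adjusted p = 0.922).

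**Figure D5:**
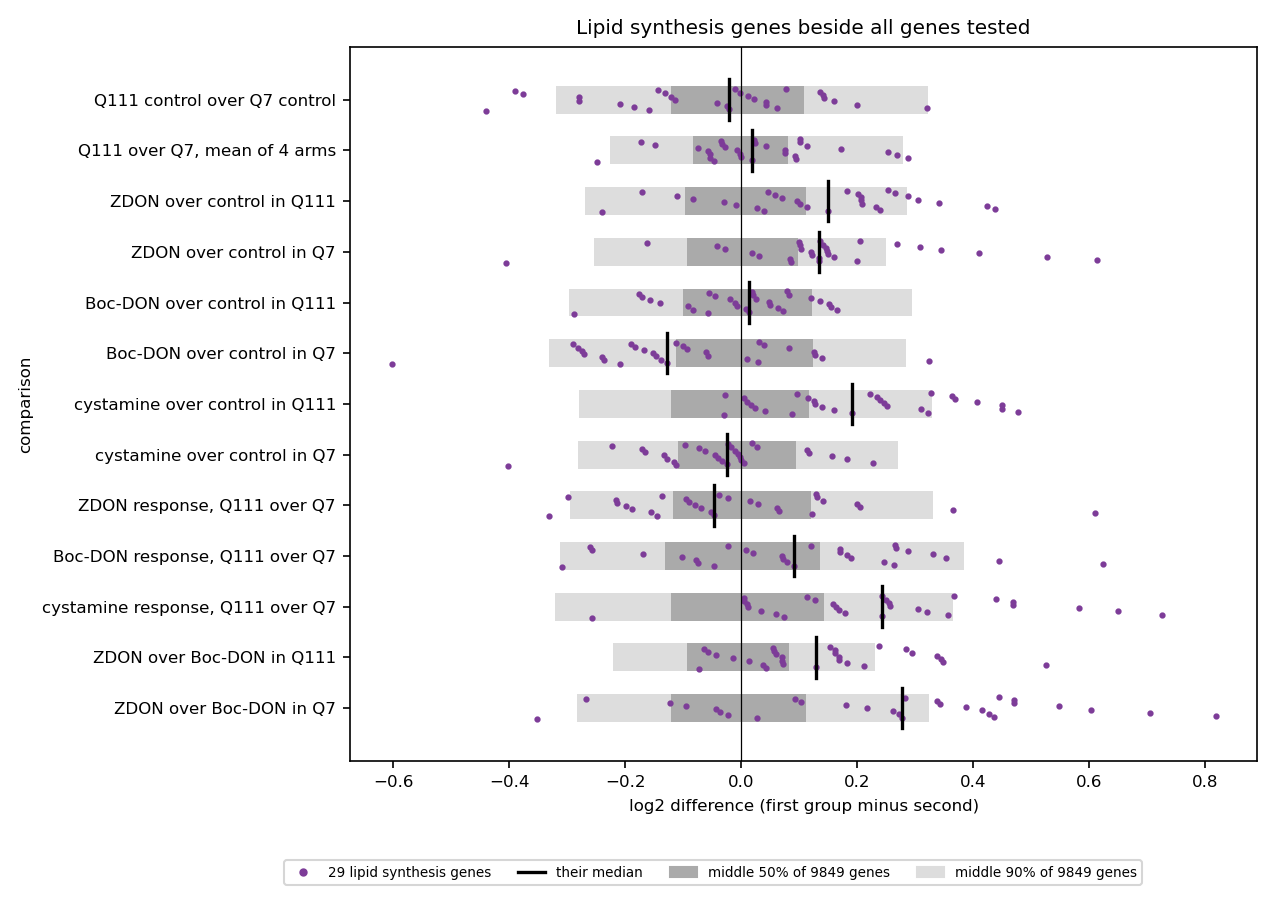
Log2 differences (x axis, first group minus second) of the 29 tested genes (purple points) and their median (black bar) in 13 comparisons, over the middle 50% (dark grey) and middle 90% (light grey) of the 9849 genes tested. The member median is 0.28 for ZDON over Boc-DON in Q7, 0.24 for the cystamine response in Q111 over Q7, and −0.13 for Boc-DON over control in Q7.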

How the data were processed

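The deposited table of all arrays holds probe intensity values, which the authors made with BeadStudio per the submitters' processing notes (version not stated). No source used here says whether background had been subtracted. The authors' deposited series matrix holds log2 values, which matched quantile-normalized log2 intensities to within 5e-09. In the table, 1 array column belonged to no labelled sample and was not used.

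With limma 3.58.1 (R 4.3.3), background was corrected by normexp with an offset of 50, and log2 values were taken after quantile normalization between arrays. The table has 24611 probes, of which 19851 had 1 gene symbol, 0 had several and 4760 had none. Probes above their array's median on at least 2 arrays were kept (15049, of which 12504 had a symbol), 1 probe that reads 18S ribosomal RNA was left out as a control, and the brightest probe of each gene was used. All 23 arrays entered 1 limma model with 8 group means and the replicate number as a block (13 residual degrees of freedom), and p-values were adjusted by Benjamini-Hochberg over 9849 genes within each of 13 comparisons, at 0.05. Precision is limited by how many arrays there are.

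The replicate number follows the BeadChip named in the sample descriptions. After group means were removed, arrays with the same number correlated at a median of 0.21 (72 of 77 pairs above 0) across genes, which are not independent, and arrays with different numbers at −0.11 (44 of 154 pairs above 0).

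The members, lists, motifs, tests and alternatives were chosen with earlier results of these data known. All members are accounted for; genes outside the list were named where they passed the threshold, up to 4 per comparison and list, with Tgm2 added. Marker lists covered striatal projection neurons, neural progenitors, fibroblasts, oligodendrocytes, astrocytes and adipocytes. Alternatives were no block, no background correction, median scaling, no filter, the deposited log2 values, and leaving out each array.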

Additional observations from a re-analysis of the deposited data

How the results depend on the processing

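Starting from the deposited log2 values, or without background correction, gave the same number of members called in all 13 comparisons. These settings hold the same values to within 5e-09, so neither adds to the other as a check. Without the replicate block, members called numbered 0 in control cells between lines, 1 in the averaged line comparison (Ebp) and 0 for ZDON over Boc-DON in Q7. Without the replicate block, calls over all genes were 153 (321 with it) for the control lines, 1113 (1693) for the averaged lines, 0 (26) and 2 (5) for ZDON in Q111 and Q7, 6 (80) and 2 (26) for Boc-DON, 63 (170) and 40 (93) for cystamine, and 0 (6) and 0 (18) for ZDON over Boc-DON. Median scaling gave 0 members in control cells between lines and 7 in the averaged line comparison, and over all genes 8 calls (26) for ZDON in Q111, 2 (5) for ZDON in Q7, 47 (80) for Boc-DON in Q111 and 12 (6) for ZDON over Boc-DON in Q111. Upward calls between the lines were 56.2% as reported and 85.6% under median scaling for the averaged comparison, and 64.8% and 76.7% in control cells. Without the filter, members called numbered 0 in control cells between lines and 0 for ZDON over Boc-DON in Q7, and calls over all genes 12 (26) for ZDON in Q111, 15 (26) for Boc-DON in Q7, 61 (93) for cystamine in Q7 and 6 (18) for ZDON over Boc-DON in Q7. The causes of these shifts were not tested. Leaving out 1 array at a time gave 0 to 1 members in control cells between lines, 2 to 5 in the averaged comparison, 0 to 3 for ZDON over Boc-DON in Q7 and 0 to 1 for cystamine in Q111, and 0 in the other 9 comparisons. Over all genes it gave 161 to 269 calls (321) for the control lines, 1283 to 1951 (1693) for the averaged lines, 2 to 13 (26) and 1 to 12 (5) for ZDON in Q111 and Q7, 10 to 52 (80) and 2 to 10 (26) for Boc-DON, 78 to 204 (170) and 38 to 67 (93) for cystamine, 0 to 6 (6) and 0 to 30 (18) for ZDON over Boc-DON, and 0 to 4 (0) for the cystamine response between lines. Ebp (0.22 to 0.28) and Scd1 (0.24 to 0.31) in the averaged comparison passed the test with any 1 of the 23 arrays left out. The member medians moved by more than the SD between chips in 7 of 13 comparisons under median scaling, in 1 without the replicate block and in 0 under the other settings of all arrays. The differences of Fasn, Ebp, Scd1 and Lss that passed the test changed sign under 0 of these settings. Without detection p-values or control probes, genes near background, among them Srebf1, Idi1 and Fdft1, could not be told from absent ones.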
